A study of Homo sapiens with 20 samples.

Results

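The comparison described here is HDAC4 silencing in oxaliplatin-treated HCT-116 cells that lack FBXW7. HCT-116 is a human colorectal cancer line, and FBXW7 is the substrate-binding part of a ubiquitin ligase that marks proteins for degradation. The series holds 20 samples, of which 16 have lists of H3K27ac peaks and super-enhancers (SEs) made by chromatin immunoprecipitation and sequencing (ChIP-seq), and 4 of those 16 are compared. They are FBXW7-/- cells (KO), obtained from a commercial supplier, with whether they are 1 clone not stated in the sources used here. The cells received for 48 h either a control pool of enzymatically made small interfering RNAs against luciferase (esiCT, libraries A and B) or a pool against HDAC4 (esiHDAC4, libraries A and B), and all 4 were given 50 µM oxaliplatin (OXPT) for the last 24 h. The labels say that 3 experiments were pooled, so A and B may not be single cultures, and any spread between them may be partly technical.

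HDAC4 is a class IIa histone deacetylase with little catalytic activity of its own, which represses genes by bringing co-repressor complexes with HDAC3 to transcription factors, above all those of the MEF2 family. Acetylation of histone H3 at lysine 27 marks active promoters and enhancers, and SEs are clusters of such enhancers stitched together and ranked by signal, often found near genes that define a cell type. Oxaliplatin is a platinum drug that forms DNA adducts and is used against colorectal cancer.

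The members were found by merging the 4 lists of peaks, and separately the 4 lists of SEs, wherever they overlapped by 1 bp on chromosomes 1 to 22 and X. A region was called lost when both esiCT lists and neither esiHDAC4 list held it, and gained in the reverse case. Of 29731 peak regions 777 were lost (2.61%) and 212 were gained (0.713%). Of 1056 SE regions 107 were lost (10.1%) and 0 were gained (0.0%). With 2 lists against 2, an exact test of a single region cannot go below 1 in 3, so a switched region carries no test and its values are a description.

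Before the values, the sequence of 5 switched regions is given, 200 bases centred on the summit of the highest peak, because they show the letters behind the motif shares reported further on. Sequences are the plus strand of hg38, and capitals mark every match, on either strand, to the 12 motifs searched. The first 3 were lost and the last 2 gained. The SNAPC1 window (chr14:61750654-61750853) lay in the lost distal region that ranked first by the lower of its 2 folds, ITGB8 (chr7:20340395-20340594) in an intron of an integrin gene with a TEAD match, and STN1 (chr10:103918765-103918964) at the promoter of a telomere-capping gene with an AP-1 match. The CDKN1A window (chr6:36682265-36682464) lay in an intron of the p53 target that encodes p21, and CERS1 (chr19:18868211-18868410) in the gained distal region that ranked first in the same way, which held no match.
SNAPC1: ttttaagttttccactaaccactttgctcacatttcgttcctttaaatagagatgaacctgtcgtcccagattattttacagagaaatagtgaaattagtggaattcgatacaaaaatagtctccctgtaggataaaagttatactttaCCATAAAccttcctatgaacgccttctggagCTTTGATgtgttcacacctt
ITGB8: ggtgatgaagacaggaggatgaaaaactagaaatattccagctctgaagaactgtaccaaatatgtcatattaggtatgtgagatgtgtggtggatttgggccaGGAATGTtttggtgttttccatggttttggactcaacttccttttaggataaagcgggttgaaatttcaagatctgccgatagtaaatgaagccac
STN1: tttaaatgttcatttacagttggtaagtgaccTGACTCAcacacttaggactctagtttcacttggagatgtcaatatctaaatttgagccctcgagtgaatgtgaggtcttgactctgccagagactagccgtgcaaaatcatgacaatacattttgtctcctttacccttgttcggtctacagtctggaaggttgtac
CDKN1A: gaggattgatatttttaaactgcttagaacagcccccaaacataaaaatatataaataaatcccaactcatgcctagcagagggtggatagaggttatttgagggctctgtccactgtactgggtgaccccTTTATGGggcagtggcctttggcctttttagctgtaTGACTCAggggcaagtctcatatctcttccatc
CERS1: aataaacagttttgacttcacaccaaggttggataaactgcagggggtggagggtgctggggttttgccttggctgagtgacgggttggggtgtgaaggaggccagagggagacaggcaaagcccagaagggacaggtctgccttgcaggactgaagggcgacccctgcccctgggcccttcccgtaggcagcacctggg

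HDAC4-silenced cells had shorter lists in both replicates, and the SE lists shortened more than the peak lists. The peak lists held 21875 (A) and 8216 (B) peaks with esiCT and 18343 (A) and 6083 (B) with esiHDAC4. The SE lists held 930 (A) and 435 (B) with esiCT and 400 (A) and 187 (B) with esiHDAC4. The 2 pairs therefore had the same SE ratio, 0.43 in A and 0.43 in B, while the peak ratio was 0.84 in A and 0.74 in B. Relative to peaks, SEs fell from 42.5 to 21.8 per 1000 peaks in A and from 52.9 to 30.7 in B. On the log2 scale the ratio averaged -1.22 ± 0.0 (SD, n = 2 pairs) for SEs and -0.34 ± 0.13 (SD, n = 2 pairs) for peaks, both larger than the spread between these 2 pairs. List numbers can vary much more between pairs: in untreated (UNT) KO cells the same contrast gave 0.97 (A) and -2.04 (B) for SEs and 0.75 (A) and -1.81 (B) for peaks. The exact permutation test within replicate letters (two-sided) gave p = 0.5 for each, the smallest p that 2 pairs allow.

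**Figure D1:**
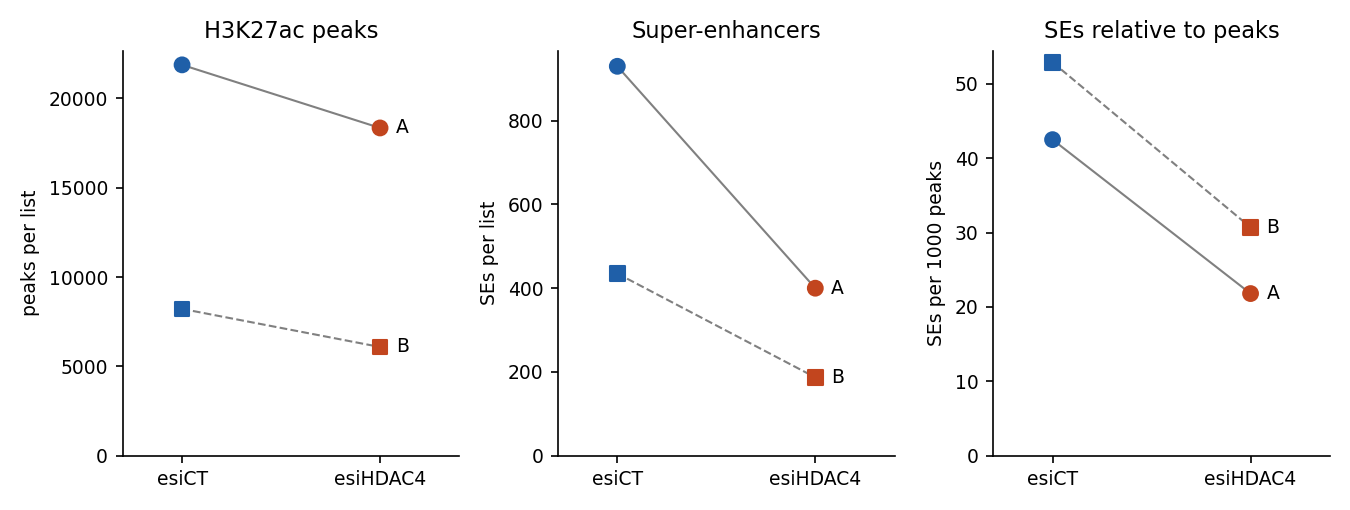
Numbers of H3K27ac peaks, of SEs and of SEs per 1000 peaks (vertical axes, from 0) in the 4 lists, with circles and solid lines for replicate A and squares and dashed lines for replicate B. SEs decreased from 930 to 400 in A and from 435 to 187 in B.

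The remaining SEs were longer rather than shorter, with a median length of 16528 bp (A) and 11762 bp (B) after esiHDAC4 against 10679 bp (A) and 9146 bp (B) after esiCT. SEs covered 13.99 Mb (A) and 6.19 Mb (B) of the genome with esiCT and 8.01 Mb (A) and 3.05 Mb (B) with esiHDAC4. Replicate letter moved the lists too. The 2 A lists shared 5741 peak regions that neither B list held, against 83 held by the B lists alone. A local background, which depends on depth, was worked out from each peak's fold and p-value. The low end of these backgrounds was 2.13 (A) and 1.29 (B) reads with esiCT and 2.89 (A) and 1.51 (B) with esiHDAC4. The shorter list of each pair thus had the higher value at this low end. At that low background a call needed a fold of at least 3.19, 3.49, 3.09 and 3.58 in the same order, while peaks over a higher local background were called at lower folds. A region missing from a list was not detected at that depth. Fewer cells carrying the mark at a site and less mark per cell cannot be told apart in these pooled cells.

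The excess of lost over gained peak regions depended on list length. When each list was shortened to the same number of peaks by p-value, 358 regions were lost and 362 gained. When only peaks with −log10 q of at least 10 were kept, 35 were lost and 10 gained. For SEs, which carry no score in the deposited lists, keeping the longest 187 of each list left 13 lost and 4 gained, the latter nearest to TTC34, WASF2, CA2 and IRF2BPL, all of which the full esiCT A list also held. Of the 13 lost, those at ELF3, PHLDB2, EMB, CAV2, SPATA31A5, KCNH3, SSH1, MYO1E and SOCS6 were also lost with the full lists, while those at EPHA2, IGF2BP2, ANXA3 and DST were SEs in the full esiHDAC4 A list.

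**Figure D2:**
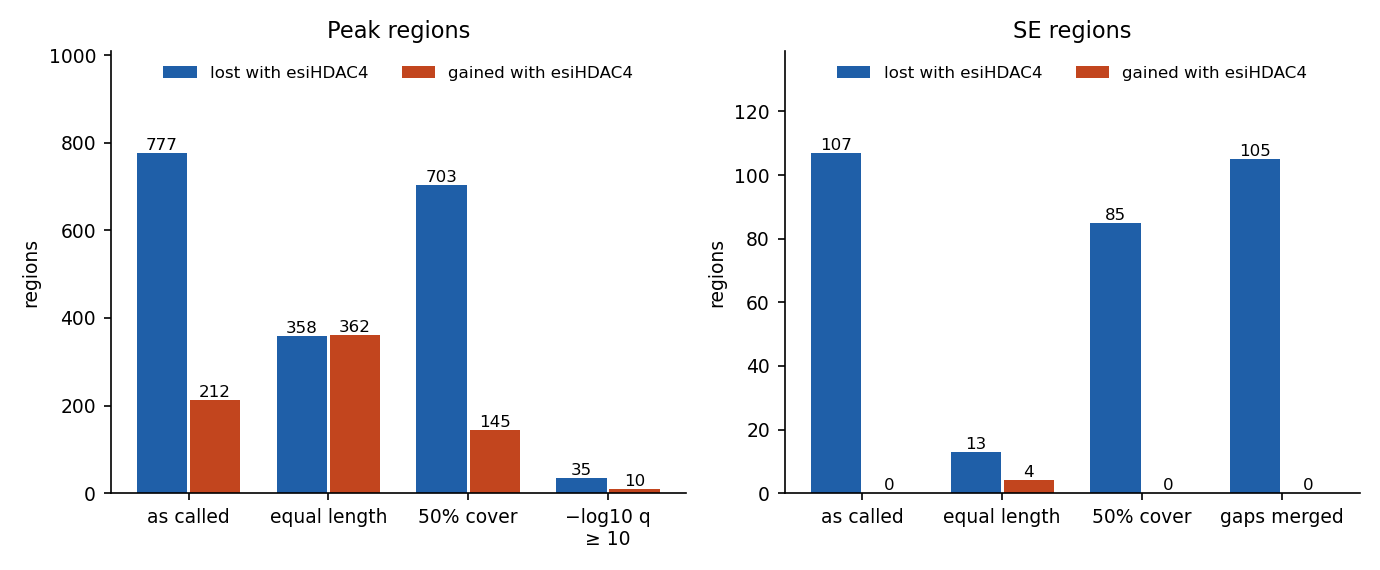
Numbers of lost (blue) and gained (red) peak regions and SE regions (vertical axes, from 0) with the lists as called and under 3 other settings each. Peak regions went from 777 lost and 212 gained to 358 and 362 with lists of equal length, while SE regions stayed in excess on the lost side, 13 against 4.

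The lost SE regions were mostly away from promoters. Of 107, 14 lay within 1 kb of a protein-coding start site (13.1%), 32 in introns, 13 over exons and 48 between genes, whereas 22.3% of all SE regions and 29.9% of the 144 SE regions held by all 4 lists reached a promoter. The lost regions spanned a median of 11017 bp against 30498 bp for those in all 4 lists.

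The longest lost SE region spanned ELF3, an ETS family transcription factor of epithelial cells (chr1:202007390-202086743). SEs covered 79354 bp of it in esiCT A and 24903 bp in esiCT B, and none in either esiHDAC4 list. Peaks did not leave the region: it held 17 (A) and 7 (B) peaks with esiCT and 8 (A) and 3 (B) with esiHDAC4. Its highest summit fold, the pileup at a peak's highest point over the local background, was 6.1 (A) and 6.8 (B) with esiCT and 4.64 (A) and 5.24 (B) with esiHDAC4. Both silenced lists thus held fewer and lower peaks there than either control list of the same letter. The region was an SE in 10 of the other 12 libraries of the series, and the exceptions were 1 KO esiCT and 1 KO esiHDAC4 library without OXPT.

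Among the other long lost SE regions, the one in MYO1E, a class I myosin gene (chr15:59268201-59304862), had a highest fold of 5.14 (A) and 5.14 (B) with esiCT and 4.51 (A) and 3.07 (B) with esiHDAC4. PHLDB2 anchors microtubules at the cell cortex (chr3:111846412-111875228), with 4.91 (A) and 4.34 (B) against 4.69 (A) and 4.14 (B). CAV2 encodes a caveolin (chr7:116441495-116462566), with 6.0 (A) and 6.07 (B) against 4.97 (A) and 5.3 (B). EHBP1, an adaptor of endocytosis (chr2:62774078-62794411), had 4.89 (A) and 6.3 (B) against 3.65 (A) and 4.33 (B). All 4 were lower with esiHDAC4 in both letters.

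SSH1, a phosphatase that activates the actin-severing protein cofilin, went the other way inside its lost SE region (chr12:108832800-108854525). Its highest fold was 4.87 (A) and 5.41 (B) with esiCT and 5.56 (A) and 7.43 (B) with esiHDAC4, so the SE call was lost while the highest peak was not lower. The region nearest to SOCS6, a suppressor of cytokine signalling (chr18:70356029-70382389), held 6 (A) and 7 (B) peaks with esiCT and 4 (A) and 2 (B) with esiHDAC4. The one over SPATS2, nearest to the start site of the potassium channel gene KCNH3 (chr12:49489201-49519827), and the one over the semaphorin gene SEMA3A (chr7:84022200-84057423) held 6 (A) and 6 (B) against 2 (A) and 2 (B) peaks, and 9 (A) and 5 (B) against 3 (A) and 1 (B). At FAM3C, which encodes a secreted protein (chr7:121529055-121547526), the highest fold was 5.53 (A) and 8.45 (B) with esiCT and 4.72 (A) and 4.0 (B) with esiHDAC4.

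The 2 remaining regions among the longest 12 were far from any gene. The one nearest to EMB (chr5:49610039-49646261) lay 782.5 kb from its start site and the one nearest to SPATA31A5 (chr9:60652025-60686975) lay 227.4 kb away, both near centromeres, where repeated sequence makes read placement uncertain. The highest fold near EMB was 2.77 (A) and 2.05 (B) with esiCT and 2.06 (A) and 1.63 (B) with esiHDAC4, the lowest of the 12.

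**Figure D3:**
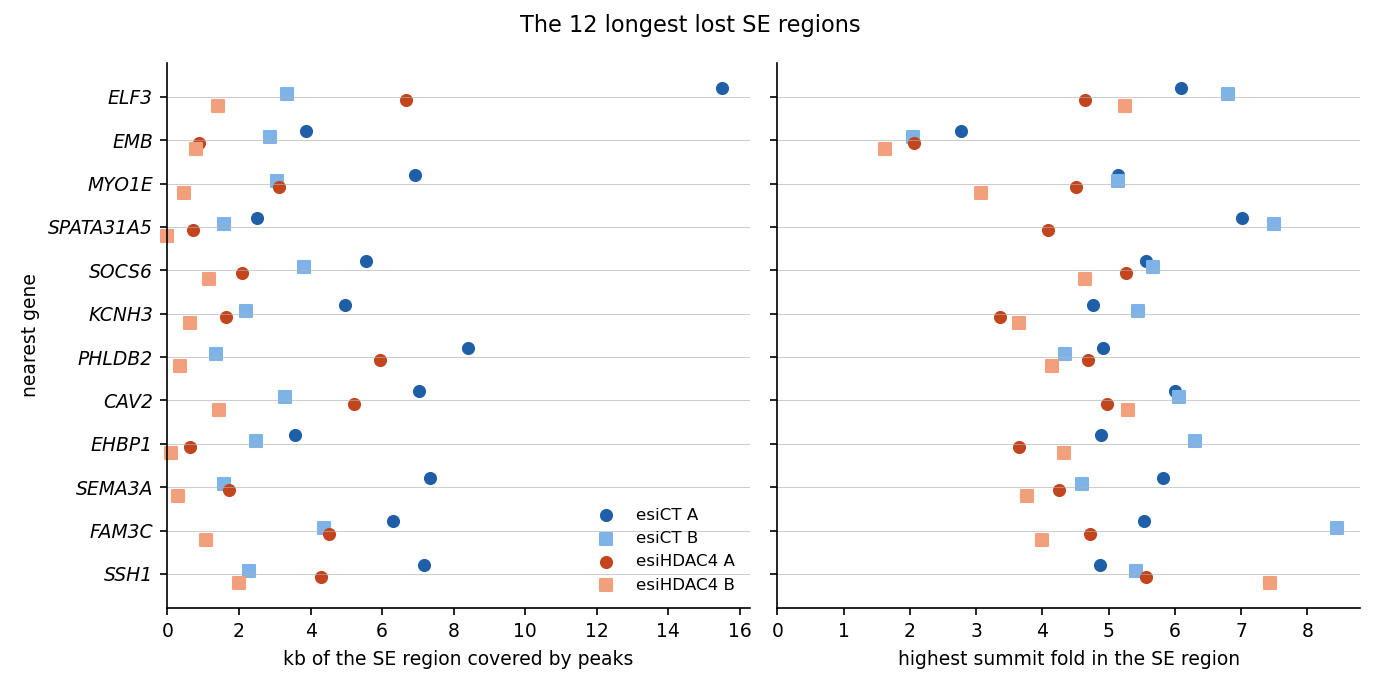
The 12 lost SE regions with the largest mean SE length, by nearest gene, with the kb covered by peaks (left) and the highest summit fold (right) in the 4 libraries, circles for A and squares for B, blue for esiCT and red or orange for esiHDAC4. ELF3 went from 6.1 (A) and 6.8 (B) fold to 4.64 (A) and 5.24 (B), while SSH1 had its highest values with esiHDAC4.

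Across all 107 lost SE regions peaks became fewer, and in most regions some stayed. At least 1 peak remained in 106 of 107 regions in esiHDAC4 A and in 87 of 107 in esiHDAC4 B, and 0 of 107 regions lacked a peak in both. The number of peaks was 495 (A) and 405 (B) with esiCT and 292 (A) and 165 (B) with esiHDAC4. Peaks covered 31.9% (A) and 16.2% (B) of the bases with esiCT and 19.6% (A) and 5.6% (B) with esiHDAC4. Fewer bases lay in peaks in 99 of 107 regions in A and 105 of 107 in B.

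The SE regions held by all 4 lists also had fewer bases in called peaks after esiHDAC4. Their peaks covered 50.2% (A) and 29.0% (B) of bases with esiCT and 38.8% (A) and 17.2% (B) with esiHDAC4, with fewer bases in 135 of 144 regions in A and 127 of 144 in B. The decrease was not limited to SEs. Over the whole lists, peaks covered 18.12 Mb (A) and 4.96 Mb (B) with esiCT and 13.21 Mb (A) and 2.85 Mb (B) with esiHDAC4. The median log2 difference of the highest fold, esiHDAC4 minus esiCT, was -0.18 (A) and -0.19 (B) in the SE regions of all 4 lists. It was -0.28 (A) and -0.29 (B) in the lost SE regions. The lost regions were chosen on these same libraries, so the difference between the 2 sets is a description.

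Lost and gained peaks were mostly weak. The median fold of lost regions was 3.89 (A) and 4.34 (B) in the esiCT lists, and that of gained regions 3.59 (A) and 4.14 (B) in the esiHDAC4 lists, against 5.45 (A), 5.13 (B), 4.64 (A) and 4.77 (B) for regions in all 4 lists. A −log10 q of at least 10 was reached by 18 (A) and 3 (B) of 777 lost regions and by 4 (A) and 1 (B) of 212 gained ones. Only 3 lost regions reached it in both esiCT lists, nearest to SRGAP2C (chr1:121775094-121775646), EMB (chr5:49630818-49631206) and SPATA31A6 (chr9:43650717-43651030), and all 3 lay near centromeres.

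Promoters made up 297 of 777 lost regions (38.2%) and 60 of 212 gained ones (28.3%), against 42.7% of all 29731. Distal lost regions lay a median of 44 kb from the nearest start site and distal gained ones 20.1 kb. Strong peaks shared by both esiCT lists were mostly distal whether or not they were kept. Of 35 regions with −log10 q of at least 10 in both esiCT lists and in neither esiHDAC4 list, 1 was at a promoter (2.9%), as were 20 of all 162 regions that strong in both esiCT lists (12.3%). With such a peak in any list the share was 48.7% of 2115 regions. The promoter was that of SCNN1A, the alpha subunit of the epithelial sodium channel (chr12:6371714-6375377), which was chosen for mention after its values were seen. Its fold was 6.81 (A) and 7.94 (B) with esiCT and 4.17 (A) and 6.06 (B) with esiHDAC4. Most of these 35 regions still held a weaker peak, 32 in esiHDAC4 A and 29 in esiHDAC4 B, and their median fold was 6.7 (A) and 7.65 (B) against 4.68 (A) and 5.36 (B). Since the 35 were selected for a weaker call with esiHDAC4, lower folds there follow from the selection. The 10 regions selected the other way had medians of 5.26 (A) and 5.12 (B) with esiCT. With esiHDAC4 theirs were 5.14 (A) and 7.27 (B). The following introns are examples of the 35, again chosen after their values were seen. PPP3CA, a calcineurin catalytic subunit (chr4:101155683-101164055), had 8.37 (A) and 7.98 (B) with esiCT and 4.64 (A) and 6.78 (B) with esiHDAC4, and MYOF, the membrane protein myoferlin (chr10:93435895-93437278), had 7.31 (A) and 7.99 (B) against 4.2 (A) and 4.97 (B).

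Of lost promoters, 6 are given, those with the highest fold in the weaker of the 2 lists. At RARS2, the mitochondrial arginyl-tRNA synthetase (chr6:87589030-87589780), the fold was 5.19 (A) and 5.64 (B) with esiCT. PARN, a poly(A)-specific ribonuclease (chr16:14632287-14632670), had 5.53 (A) and 5.12 (B). MAGOHB, a component of the exon junction complex (chr12:10613783-10614157), had 5.03 (A) and 5.46 (B). ADPGK, an ADP-dependent glucokinase (chr15:72783917-72784359), had 5.14 (A) and 5.74 (B), and FAM200C (chr5:160398818-160399924) had 6.42 (A) and 5.1 (B). The sixth, AGPAT5, an acyltransferase of phospholipid synthesis, had 5.29 (A) and 5.56 (B). None of these had a peak in either esiHDAC4 list.

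Among gained promoters, GNAL, a G protein alpha subunit (chr18:11856779-11857407), had 4.75 (A) and 6.42 (B) with esiHDAC4. MAN2C1, a cytosolic mannosidase (chr15:75368193-75368570), had 5.45 (A) and 4.73 (B), and CUL9, a cullin (chr6:43182305-43183337), had 4.62 (A) and 4.46 (B). POLD4, the smallest subunit of DNA polymerase delta (chr11:67352591-67353483), had 4.53 (A) and 4.46 (B). HDAC1, the class I deacetylase (chr1:32291407-32291805), had 5.02 (A) and 4.2 (B), and SMIM13 (chr6:11094359-11095313) had 4.42 (A) and 4.31 (B).

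The strongest lost distal regions lay near SNAPC1, a subunit of the complex that activates small nuclear RNA genes, with a fold of 5.78 (A) and 6.62 (B), and in introns. In an intron of the small GTPase gene RAB31, with TXNDC2 as the nearest start site, the fold was 6.75 (A) and 5.69 (B), and in one of PALLD, the actin-bundling protein palladin (chr4:168560601-168562018), 5.66 (A) and 5.64 (B). Over an exon of DSG4, a desmosomal cadherin (chr18:31398144-31399334), it was 6.5 (A) and 5.59 (B). Near ZNF33B, at a centromere and 1147.2 kb from that gene, it was 7.02 (A) and 5.67 (B), and near FOXD4L6, a member of a duplicated gene family, 5.48 (A) and 6.11 (B).

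The strongest gained distal regions lay near CERS1, a ceramide synthase, with 5.69 (A) and 6.8 (B), and 161.1 kb from NR3C1, the glucocorticoid receptor (chr5:143596638-143597152), with 5.65 (A) and 5.42 (B). Those in introns of HIC2, a transcriptional repressor (chr22:21436286-21436561), KATNAL2 (chr18:46969068-46969620) and SBF2 (chr11:10044183-10045149) had 5.26 (A) and 6.36 (B), 5.15 (A) and 5.57 (B), and 4.72 (A) and 6.38 (B). Near ARL2, a small GTPase of tubulin folding (chr11:65006211-65006917), it was 7.48 (A) and 4.56 (B). None of these had a peak in either esiCT list.

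Genes were also read by list, with a region counted to a gene when it lay in the gene body or within 10 kb of it. Over all 19962 protein-coding genes 3.8% had a lost peak region, 1.2% a gained one and 0.5% a lost SE region. Only a gene with a peak or an SE can lose one, and the shares were not adjusted for this. With esiCT, 8889 (A) and 2726 (B) of all genes had a start site peak, and 759 (A) and 285 (B) an SE. Of the 12 AP-1 and ATF factors, 11 (A) and 3 (B) had a start site peak with esiCT. Of 12 AP-1 and ATF factors 3 had a lost peak region and 0 a gained one. They were JUNB (chr19:12792792-12793461), with a fold of 4.86 (A) and 4.12 (B), MAFF at its promoter (chr22:38202958-38203506), with 4.0 (A) and 5.15 (B), and ATF3 upstream of the gene (chr1:212560629-212561536), with 3.43 (A) and 3.47 (B). MAFF had no peak left in either esiHDAC4 list.

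ATF3, a stress-induced transcription factor, moved both ways. A region in its intron (chr1:212596443-212597885) was in all 4 lists, with a fold of 4.5 (A) and 4.78 (B) with esiCT and 7.63 (A) and 7.27 (B) with esiHDAC4. Both silenced values lay above both controls. This region was among the 8 with the smallest p for a higher fold, a choice that favours such a gap. It had a log2 difference of 0.85 ± 0.24 (SE), which did not pass across all regions (limma adjusted p = 0.18). With only the 159 regions whose 4 summits lay within 200 bp it passed (limma adjusted p = 0.0163).

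Of 18 p53 targets 2 had a gained peak region (11.1%) and 0 a lost one. CDKN1A gained an intronic region (chr6:36681817-36682563) with a fold of 4.68 (A) and 4.16 (B), and had other peaks in every list, 3 (A) and 5 (B) with esiCT and 5 (A) and 7 (B) with esiHDAC4. TNFRSF10B, a death receptor, gained a region over the neighbouring gene RHOBTB2, with 3.36 (A) and 4.46 (B). Peaks stood at the start sites of 18 of 18 p53 targets in both A lists, and of 12 (esiCT) and 13 (esiHDAC4) in the B lists. Of all 19962 protein-coding genes, 8889 (A) and 2726 (B) had such a peak with esiCT and 6927 (A) and 2047 (B) with esiHDAC4.

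Of 11 genes listed for EGFR signalling 3 had a lost region and 0 a gained one. AREG, an EGFR ligand (chr4:74447413-74448007), had 4.06 (A) and 3.77 (B), and IRS1, an adaptor of insulin signalling (chr2:226801568-226803021), had 3.37 (A) and 4.55 (B). The third lay within 10 kb of the receptor gene ERBB3 but at the promoter of PA2G4 (chr12:56103510-56104063), with 3.41 (A) and 4.34 (B). Of 13 listed WNT pathway genes 2 had a lost peak region and 0 a gained one. The list is a selection, and gained regions also lay nearest to WNT3 and WNT9A, which it leaves out. Lost regions at other unlisted pathway genes were not counted. AXIN2, a feedback inhibitor (chr17:65556789-65557367), had 2.82 (A) and 3.49 (B), while the region counted to RNF43 lay at the promoter of SUPT4H1 (chr17:58351687-58352102), with 3.26 (A) and 4.4 (B). An intronic region nearest to RNF43 (chr17:58388163-58391433) went the other way. Its fold was 4.59 (A) and 5.1 (B) with esiCT and 4.79 (A) and 6.5 (B) with esiHDAC4. It reached a −log10 q of 10 in both esiHDAC4 and neither esiCT list, a selection that favours such a difference. ZNRF3, a ligase that removes Frizzled receptors, lost an SE region (chr22:28975708-28983029), whose highest fold was 4.11 (A) and 4.51 (B) with esiCT and 3.36 in esiHDAC4 A, with no peak in esiHDAC4 B.

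Of 14 epithelial factors 3 had a lost SE region (21.4%): ELF3, ZNF217 and IRF2BP2. With esiCT, 4 (A) and 4 (B) of the 14 had an SE that could be lost. At ZNF217, a zinc finger factor (chr20:53610083-53624480), the highest fold was 8.0 (A) and 8.2 (B) with esiCT and 5.5 (A) and 4.3 (B) with esiHDAC4. Both silenced values lay below both controls, in a region called lost on these same libraries. At IRF2BP2, a transcriptional co-regulator (chr1:234603155-234618158), it was 4.44 (A) and 5.66 (B) against 5.08 (A) and 4.94 (B), so the groups overlapped, and the promoter held a gained peak region (chr1:234610393-234610868). KLF5, an intestinal epithelial factor and the 1 of 8 genes listed as FBXW7 and its substrates with a switched region, lost a promoter region (chr13:73057591-73058507) with 4.23 (A) and 3.99 (B). That list is a selection. MYC, which the study also treated as a target of FBXW7, is in another list and had 1 lost and 1 gained region. Of 15 genes of adhesion and epithelial structure 1, ITGB8 (chr7:20340383-20353541), had a lost SE region, which was an SE in 1 of the other 12 libraries.

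The list of platinum transport and repair held 15 genes. STN1, a telomere-capping factor, had 2 lost peak regions, with 4.25 (A) and 4.74 (B) at the promoter (chr10:103918626-103919342).

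Among the other lists, glucose metabolism had 2 of 15 genes with a lost peak region, SLC2A1, the main glucose transporter (chr1:42960937-42961745), with 3.18 (A) and 4.62 (B), and PDP1 with 2.95 (A) and 4.36 (B). TGF-beta and YAP targets had 1 of 14, SMAD3 (chr15:67149686-67150488), with 4.0 (A) and 4.24 (B), beside the lost SE region at CAV2. Immediate early and NR4A genes had 1 of 11, MYC, which had 1 lost and 1 gained region. The 13 genes listed for the BCL2 family, the 12 listed NF-kB targets and the 10 listed genes of HDAC4 and its partners had 0 lost and 0 gained peak regions. The lists are selections. The promoter of BAD, a BCL2 family gene outside them, held a gained region with 2.64 (A) and 3.25 (B). Lost regions at other unlisted family members were not counted. HDAC4 itself had 13 (A) and 3 (B) peaks with esiCT and 11 (A) and 4 (B) with esiHDAC4, which tests nothing about the silencing of its RNA.

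The cells carried the marks of an epithelial line in all 4 lists. Of 7 epithelial markers 7 (A) and 4 (B) had a peak at a start site with esiCT and 7 (A) and 5 (B) with esiHDAC4, while of 14 markers of other cell types 1 (A) and 0 (B) had one in each group. Of all 19962 protein-coding genes it was 8889 (A) and 2726 (B) with esiCT and 6927 (A) and 2047 (B) with esiHDAC4.

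Regions called in all 4 lists allow a test of height, since they are not among the lost or gained regions. A change that took a region below the calling limit in any list removed it from this set. The test therefore covers only changes that left a call in all 4 lists. In 2188 such regions the uncentred fold was lower with esiHDAC4 in 73.5% of regions in A and 62.1% in B, with a median log2 difference of -0.22 in A and -0.11 in B, a mean of -0.16 ± 0.08 (SD, n = 2 pairs). Changes relative to that shift were tested with limma on log2 fold, each library centred on its median. None of the 2188 regions passed an adjusted p of 0.05, 0 higher and 0 lower (0.0%), and at an unadjusted p under 0.05 there were 101 higher and 80 lower. On simulated data of this comparison with 200 changed regions, 85% of log2 changes of 1 and 100% of log2 changes of 2 were recovered among 2188 regions. There were 8 false calls at each size. The simulated noise was independent, with no replicate effect and no calling limit, and so many changed regions ease the adjusted threshold. The shares recovered may therefore not hold for the real data, where a log2 difference of 1.02 did not pass. The differences of the 2 pairs had a Pearson's r of 0.09 across regions, which are not independent replicates.

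The region closest to the threshold lay in an intron of FAM222B (chr17:28806473-28808923). Its fold was 4.25 (A) and 3.08 (B) with esiCT and 7.06 (A) and 6.05 (B) with esiHDAC4, a centred log2 difference of 1.02 ± 0.24 (SE, limma adjusted p = 0.0518). The region near PTPRU, a receptor tyrosine phosphatase (chr1:29707761-29710417), had 3.82 (A) and 3.66 (B) against 5.29 (A) and 7.15 (B). The region near FAT1, an atypical cadherin (chr4:186729105-186730129), had 2.74 (A) and 3.99 (B) against 4.46 (A) and 5.64 (B). In these 3 regions both silenced values lay above both controls, which a choice by smallest p favours. Over all 2188 regions 572 were higher and 558 lower with esiHDAC4 in both pairs after centring. FOXD4L5 (chr9:63338013-63339588), 1945.6 kb from the gene and near a centromere, had 6.63 (A) and 5.99 (B) against 10.66 (A) and 11.14 (B).

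In the other direction, the promoter of UFL1, a ligase for the ubiquitin-like protein UFM1 (chr6:96520755-96521519), had 6.09 (A) and 5.14 (B) with esiCT and 2.32 (A) and 3.12 (B) with esiHDAC4 (log2 difference -0.89, limma adjusted p = 0.131). An intron of TEAD1, the DNA-binding partner of YAP (chr11:12691592-12696041), had 6.36 (A) and 9.98 (B) against 3.83 (A) and 4.94 (B). Introns of ALCAM, a cell adhesion molecule (chr3:105400595-105402478), and VMP1, an autophagy protein (chr17:59753375-59756394), had 6.11 (A) and 6.71 (B) against 3.02 (A) and 3.9 (B), and 7.94 (A) and 7.41 (B) against 4.71 (A) and 3.98 (B). Both silenced values lay below both controls in these 4 regions, which the same choice favours, and none passed.

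**Figure D4:**
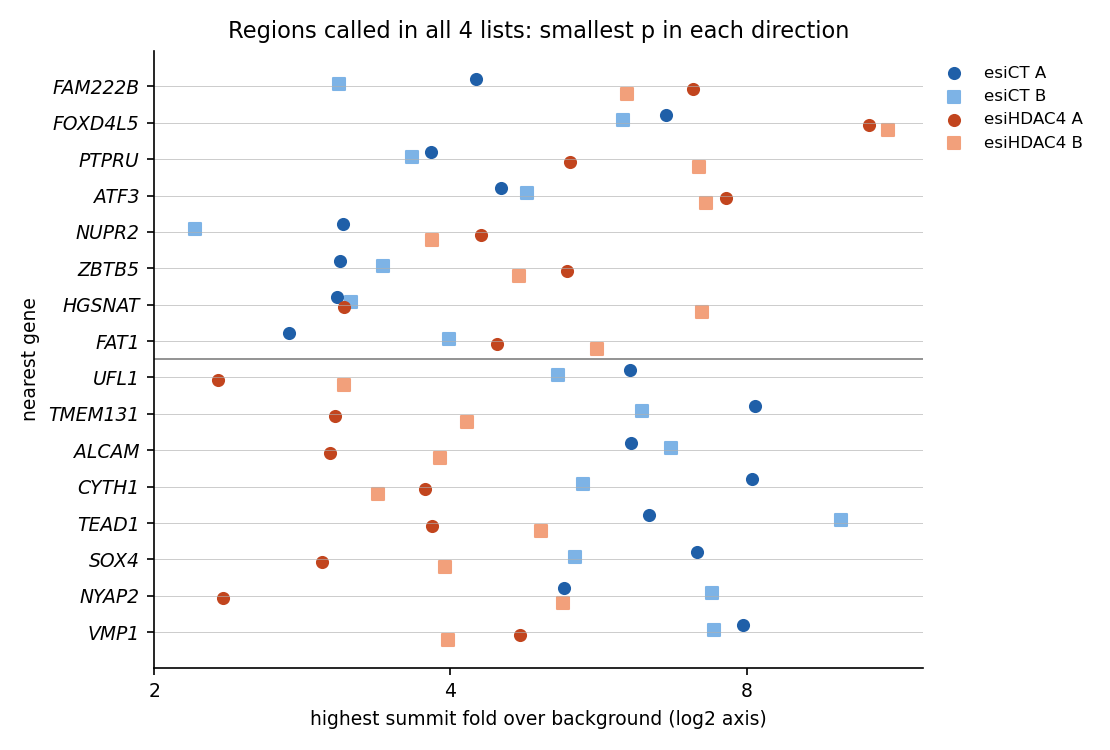
Highest summit fold (horizontal log2 axis) in the 4 libraries for the 8 regions with the smallest p in each direction among 2188 regions in all 4 lists, by nearest gene, with circles for A, squares for B, blue for esiCT and red or orange for esiHDAC4. Regions above the line were higher with esiHDAC4, such as ATF3, and those below it lower, such as UFL1, and none passed an adjusted p of 0.05.

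The same response was set against that of cells with intact FBXW7 (WT) under OXPT. Over 1602 regions in all 8 OXPT lists, 0 had a KO response that differed from the WT response (limma interaction, smallest adjusted p = 0.995, 0.0%), with 22 higher and 28 lower at an unadjusted p under 0.05. Nothing in the summit folds was therefore shown to be particular to the KO cells. Of the 107 lost SE regions, 2 were lost and 9 gained in the same contrast in WT OXPT cells, and over all 1056 SE regions 4 were lost and 48 gained there. In UNT KO cells 5 of the 107 were lost and 0 gained, and 19 and 1 of all 1056. In UNT WT cells 2 of the 107 were lost and 2 gained, and 44 and 5 of all 1056.

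In libraries the rule did not use, the lost SE regions were called more often than all SE regions in some groups and not in others. They were SEs in 64.5% (A) and 84.1% (B) of cases in WT esiCT UNT cells, where all SE regions were in 51.6% (A) and 70.4% (B). In KO esiCT UNT cells they were SEs in 31.8% (A) and 31.8% (B) of cases against 25.8% (A) and 23.7% (B) of all SE regions. In WT esiCT OXPT cells the shares were close, 33.6% (A) and 25.2% (B) against 33.0% (A) and 24.0% (B). In WT esiHDAC4 OXPT cells they were 41.1% (A) and 40.2% (B) against 44.5% (A) and 35.6% (B), and in KO esiHDAC4 UNT cells 47.7% (A) and 1.9% (B) against 40.5% (A) and 5.7% (B). In WT esiHDAC4 UNT cells they were 51.4% (A) and 70.1% (B) against 41.6% (A) and 54.7% (B). Over the other 12 libraries the median number of calls was 5 for lost and 4 for all SE regions, and 2.8% of lost against 14.2% of all were called in none. A lost SE region had to be in 2 lists, whereas 475 of all 1056 were in the esiCT A list alone. Part of the higher recurrence of lost regions therefore follows from the rule. SE regions in all 4 lists were SEs in 86.1% (A) and 81.2% (B) of cases in KO esiCT UNT cells. In KO esiCT UNT cells 49.5% of lost and 66.5% of all SE regions were in neither list, and 13.1% and 15.9% in both.

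Lost peak regions behaved likewise. They were called in 81.7% (A) and 83.8% (B) of cases in WT esiCT UNT cells, against 64.4% (A) and 58.5% (B) of all regions, and in 35.4% (A) and 25.4% (B) in KO esiCT UNT cells, against 30.7% (A) and 13.7% (B). Gained regions were called less often than all regions in these lists, with 48.6% (A) and 45.8% (B) in WT esiCT UNT and 14.2% (A) and 4.7% (B) in KO esiCT UNT cells. They were called in 58.0% (A) and 27.8% (B) of cases in WT esiCT OXPT cells, against 51.9% (A) and 22.9% (B). These shares are descriptions with no test, since the lists differ in length.

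Base composition, which the rule did not use, differed between lost and gained regions. Over 300 bases around the summit, distal lost regions had a median G+C of 39.7% and distal gained regions 50.3%, against 47.0% for all distal regions. At promoters the medians were 47.7% for lost and 54.0% for gained regions against 58.3% for all. Distal regions of the lists themselves differed in the same direction: those of the esiCT lists had a median of 46.0% (A) and 40.7% (B) and those of the esiHDAC4 lists 49.3% (A) and 45% (B). Promoter regions went from 59.3% to 59.0% in A and from 51.0% to 55.7% in B. The part of base composition in the calls was not tested.

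**Figure D5:**
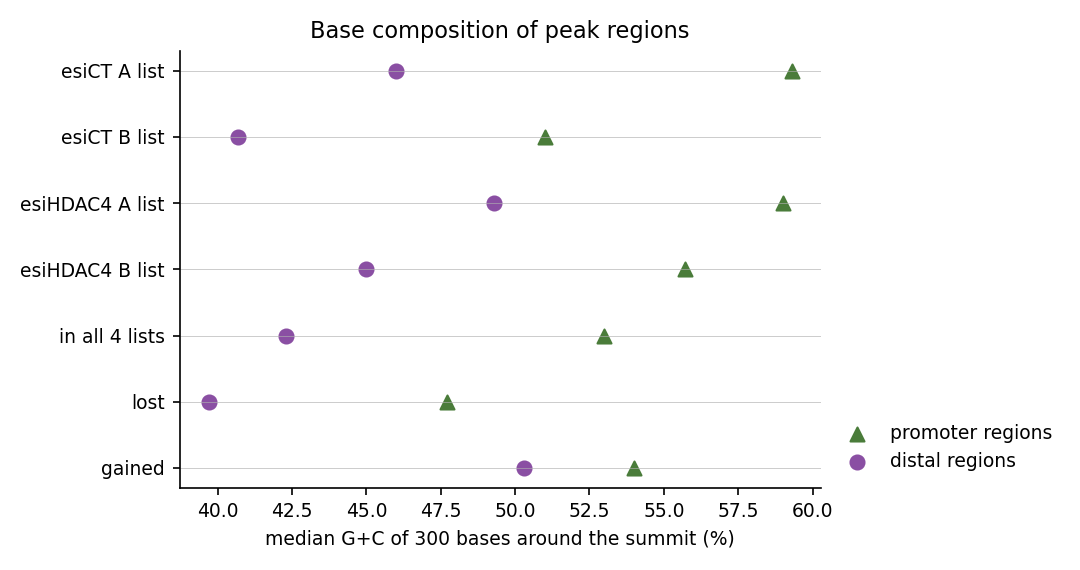
Median G+C (horizontal axis, %, not from 0) over 300 bases around the summit for promoter regions (triangles) and distal regions (circles) of each of the 4 lists, of the regions in all 4 lists, and of lost and gained regions. Distal lost regions were at 39.7% and distal gained regions at 50.3%.

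The CDX2 motif (TTTATNG), that of an intestinal homeodomain factor, was in 24.8% of distal lost and 11.8% of distal gained regions, against 14.9% of all distal regions. In distal regions called in all 4 lists its share was 19.1%. The GC box (GGGCGG) was in 20.5% of lost promoters and 30.0% of gained promoters, against 39.0% of all promoter regions. In promoter regions called in all 4 lists its share was 29.6%, near that of gained ones. The AP-1 motif (TGANTCA), as in the STN1 and CDKN1A windows, was in 9.4% of lost and 5.0% of gained promoters against 4.7%, while in distal regions it was in 8.5%, 9.9% and 9.1%. Its share in regions of all 4 lists was 5.4% (promoter) and 9.6% (distal). The MEF2 motif, the best known site of HDAC4 recruitment, was in 8.8% of distal lost, 10.5% of distal gained and 5.7% of all distal regions. Distal regions in all 4 lists held it in 7.7% of cases. Within 100 bases of the summit the MEF2 shares were 4.0%, 1.3% and 1.7%, so the gained regions were then not above all regions. The p53 half-site pair was in 0.0% of lost regions of either class and in 1.3% of distal and 1.7% of promoter gained regions, against 0.3% and 0.1%. Those gained shares were 2 of 152 and 1 of 60 regions, and within 100 bases of the summit 0 gained regions held the pair. Lost regions had a lower median G+C than all regions of their class, and the shares were not adjusted for it. The GC box is made of G and C alone, and the CDX2 letters are mostly A and T. How far the motif shares follow base composition was not tested. A match describes letters and not a bound site.

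Among the other motifs, distal lost, gained and all regions differed as follows. TEAD (ACATTCC) was in 3.8%, 5.9% and 4.0%, as in the ITGB8 window, TCF (CTTTGAT) in 5.6%, 5.3% and 3.5%, FOX (GTAAACA) in 4.6%, 2.6% and 3.8%, and the CCAAT box in 35.0%, 31.6% and 29.7%. ETS (CCGGAAG), NBRE (AAAGGTCA) and CRE (TGACGTCA) were in at most 1.5% of any of these 3 distal sets. The GC box was in 4.2%, 9.9% and 10.6%. Distal regions called in all 4 lists had TEAD in 4.4%, TCF in 5.5% and FOX in 4.3%. They had the CCAAT box in 35.8% and the GC box in 7.3%, so the TCF and CCAAT shares were near those of lost regions. The motifs were searched on both strands. A CRE does not itself match the AP-1 letters, while a MEF2 match can hold a CDX2 match.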

How the data were processed

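H3K27ac was measured by ChIP-seq in 16 libraries with lists, of which 4 entered the main comparison, 4 more the test against WT OXPT cells and all 16 the counts of recurrence. Groups came from the labels. The 4 input samples were not analysed here.

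Per the labels and the study's methods, the authors used Trimmomatic 0.39 for trimming, Bowtie2 2.4.4 for alignment to hg38, SAMtools 1.18 for duplicates and MACS2 2.2.7.1 for one peak list per library, and ROSE stitched enhancers into SEs. The deposited peak lists give, for each peak, a fold enrichment (the ratio of summit pileup to local background), a −log10 p-value and a −log10 q-value, and a score made from the q-value. SE lists were deposited as positions without a score. The study kept SEs that also carried H3K4me1, and no source used here says whether the deposited lists had passed that filter. No read totals were used, so depth was read from the whole number of summit reads and the background that fold and −log10 p imply together (tolerance 0.01, −log10 p below 60). That held for 100% of peaks in each of the 4 libraries.

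Peaks and SEs on chromosomes 1 to 22 and X were kept, which left out 166 peaks and 12 SEs of the 4 lists. The annotation was GENCODE 44, limited to protein-coding genes, and a region's gene is the one with the nearest start site. A promoter region came within 1 kb of a start site. Sequences came from the hg38 reference. All 188 listed genes were matched.

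Named SE regions are the 12 lost with the largest mean SE length over both esiCT lists. Named peak regions are the 6 lost or gained, at promoters or distal, with the highest lower value of the 2 folds, and named regions in all 4 lists come from the 8 with the smallest p in each direction. Regions at listed genes were also named. The members, lists and tests were chosen with earlier results of these data known.

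Summit folds were tested with limma 3.58.1 in R 4.3.3, with replicate letter as a block following the study's design, Benjamini-Hochberg adjustment and a threshold of 0.05. The estimated prior degrees of freedom were infinite, so every region had the same standard error, and the settings were tested on simulated data. Fold enrichment is not a count, so no count model was fitted. Alternatives changed the peak threshold, the length of the lists, the merging, the overlap, the centring, the block, the window and the libraries used. Some results at listed genes, and some sequences, are not reported here.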

Additional observations from a re-analysis of the deposited data

Results flagged for a closer look

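SE numbers after HDAC4 silencing moved in opposite directions in the 2 genotypes under OXPT. In KO cells both pairs decreased, a mean log2 ratio of -1.22, while in WT OXPT cells both pairs increased, by 0.87 (A) and 0.67 (B), a mean of 0.77. An exact permutation test of genotype over the 4 pairs (two-sided) gave a p of 1 in 3, the smallest it allows, so the difference could not pass a threshold. In UNT cells the log2 ratio of SEs was -0.57 (A) and -0.71 (B) in WT and 0.97 (A) and -2.04 (B) in KO cells, so a decrease was not limited to KO cells. Peak numbers did not follow this pattern in WT cells, where the log2 ratio was -0.27 in A and 0.87 in B. Groups of 2 libraries are too small for a test of outlying samples.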

How the results depend on the processing

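The numbers of peaks and SEs kept their direction under every alternative run. Without one replicate the log2 ratio of SEs was -1.22 and -1.22, and that of peaks ranged from -0.43 to -0.25. Under the −log10 q limit of 10, lost and gained peak regions were 35 and 10. With lists of equal length they were 358 and 362. With strong calls on the present side against none on the absent side they were 3 and 1. With 1 pair of libraries alone, lost peak regions ranged from 5421 to 10457 and gained ones from 2960 to 6114, and lost SE regions ranged from 265 to 597 and gained ones from 11 to 65. The 2 alternatives chosen after seeing the data gave 13 lost and 4 gained SE regions with the longest SEs of each list, and 0 lost SE regions without any peak in the esiHDAC4 lists. Fewer peaks or libraries enter each of these, which sets the counts by construction. Merging across gaps and the 50% overlap kept all switched counts within 1.5 times.

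For summit folds, 2 regions were called higher with enrichment from recovered reads (FAM222B and FOXD4L5), 3 higher among regions with summits within 200 bp (ATF3, NUPR2 and HGSNAT, the last resting on esiHDAC4 B, since over all regions its log2 difference was 0.77 with that library and 0.19 without it) and 1 lower without centring (UFL1), and the cause was not tested. The test without the replicate block called 0 regions, with a smallest adjusted p of 0.996, and without any single library it called 0. The labels give the letters no meaning beyond a replicate, and deviations of same-letter libraries correlated at 0.31 over 2188 regions. Without replicate A or B no calls can be made, and the median shift was -0.11 and -0.22. The KO against WT test kept 0 calls in both alternatives. Not one named region reversed. A start site window of 2.5 kb made 42.6% of lost and 36.3% of gained regions promoters, and the −log10 q limit 2.9% of lost ones. Within 100 bases of the summit, the share minus that of all regions was 3.0 points in place of 9.9 for CDX2 in distal lost regions, -0.4 in place of 4.8 for MEF2 in distal gained regions, and -8.2 in place of -18.5 for the GC box in lost promoters, and shorter windows hold fewer matches by construction. Depth and the 2 libraries per group limit every call of absence.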

Other observations

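Some lost peak regions lay inside SE regions. Of 777 lost peak regions 45 lay in a lost SE region (5.8%), while 63 lay in SE regions that all 4 lists held (8.1%), against 1.8% and 5.3% of all peak regions. A lost peak region was present in 35 of 107 lost SE regions (32.7%) and in 47 of 144 SE regions in all 4 lists (32.6%). The latter regions were longer, and the 2 shares are a description with no test.

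Some genes outside the lists were nearest to several lost peak regions, beside many that were not lost. PCDH7, a protocadherin, was nearest to 10 lost of 99 regions, BMP4, a secreted growth factor, to 5 of 25, SAMD13 to 4 of 8, PDE4B to 4 of 34, GRIN2B to 4 of 43 and PHLDA1 to 4 of 47. SPATA31A6, with 6 of 51, and SRGAP2C, with 4 of 49, were nearest to regions around centromeres. Strong peaks near PCDH7 had a fold of 6.74 (A) and 7.59 (B) with esiCT and 4.46 (A) and 6.42 (B) with esiHDAC4 (chr4:30853797-30861086), and 6.58 (A) and 7.46 (B) against 4.28 (A) and 5.36 (B) (chr4:31041004-31047992). Near PHLDA1 one (chr12:75978422-75980921) had 7.38 (A) and 8.73 (B) against 4.74 (A) and 5.17 (B). Of the 212 gained regions at most 3 were nearest to any gene, KATNAL2, with 4 regions in all. These genes were chosen after their values were seen. The strong peaks near PCDH7 and PHLDA1 belong to the 35 selected as strong in both esiCT and neither esiHDAC4 list. Their lower folds with esiHDAC4 follow from that selection.

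Within the lost SE region at S100A2, a calcium-binding protein of epithelial cells, a promoter peak went the other way (chr1:153566859-153568617). Its fold was 4.38 (A) and 5.13 (B) with esiCT and 5.21 (A) and 7.27 (B) with esiHDAC4. It belongs to the 10 regions selected as strong in both esiHDAC4 and neither esiCT list, which favours such a difference.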
